A study of Mus musculus with 9 samples.

Results

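The genes of the constitutive proteasome were described in dendritic cells (DCs) grown from mouse bone marrow. They were taken as the genes whose symbol is *Psm*, a letter from a to g and a number, without the inducible subunits *Psmb8*, *Psmb9* and *Psmb10*, and with at least 10 counts in at least 3 libraries. Of 45 genes with such a symbol, 44 met the count minimum, out of 55471 genes in the deposited counts, and all 44 were among the 16260 genes tested. The gene left out was *Psmb11*, a β subunit of the thymus, which had 0 to 4 counts per library. DCs came from wild-type C57BL/6 mice, which were female and between 8 and 20 weeks old, and were differentiated with GM-CSF at 20 ng/mL. They were left unstimulated, activated with lipopolysaccharide (LPS) at 100 ng/mL, or treated with interferon-β (IFN-β) at 1000 U/mL, and RNA was taken after 6 h. LPS comes from the outer membrane of bacteria and is sensed by a Toll-like receptor, whereas IFN-β acts through the receptor of type I interferons. Each condition had 3 libraries with the letters A, B and C, and the labels do not say whether these are separate cultures or animals, so p-values measure only the spread between these libraries, which may be technical.

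The proteasome degrades proteins that carry chains of ubiquitin. Its 20S core is a barrel of α rings, which gate the entrance, and β rings, which hold the cutting sites of *Psmb5*, *Psmb6* and *Psmb7*. The 19S particle binds the barrel's ends with a ring of ATPases that unfold the substrate and with non-ATPase subunits that recognise ubiquitin and remove it. Other caps can take its place, among them PA28, formed by the products of *Psme1* and *Psme2*. In antigen-presenting cells the proteasome produces the peptides that are shown on MHC class I. Inflammatory signals there are known to exchange the 3 cutting subunits for the inducible ones and to raise PA28.

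Libraries held 33425803 to 43735199 counts on genes, of which the 44 genes took 0.385% ± 0.00837 (SD, n = 3) without stimulation, 0.433% ± 0.0115 after LPS and 0.390% ± 0.0118 after IFN-β. All 6 markers of DCs or macrophages (*Itgax*, *Itgam*, *H2-Aa*, *Cd74*, *Csf1r* and *Adgre1*) were detected in every group. Their summed level was 5830 to 6980 CPM (a gene's share of the scaled library size) without stimulation, 6930 to 7820 CPM after LPS and 6350 to 6710 CPM after IFN-β. Within this sum the genes moved in different directions with LPS, with log2 fold changes from -0.97 for *Csf1r* to 1.23 for *Adgre1*. With IFN-β no gene of this list passed the test. Summed neutrophil markers reached at most 24.2 CPM, those of mast cells 1.20 CPM, B cells 0.495 CPM and T or NK cells 0.304 CPM, and 3 of 4 erythroid markers were at 0 in each group. The 4 markers of proliferating cells summed to 200 to 252 CPM without stimulation, 152 to 179 CPM after LPS and 140 to 164 CPM after IFN-β. *Mki67* made up most of these sums and had a log2 fold change of 0.03 with LPS (adjusted p = 0.848) and -0.44 with IFN-β, whereas *Top2a*, *Birc5* and *Ccnb1* were lower, at -1.99, -2.62 and -2.70 with LPS and -0.71, -0.99 and -0.90 with IFN-β. The part of these genes in the results was not tested. In these bulk libraries, fewer cells of a type and less RNA per cell cannot be told apart.

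Counts were scaled with TMM factors, which centre a trimmed mean of log ratios between libraries and assume that most genes do not change. The factors differed between groups: 1.18 to 1.26 in unstimulated DCs, 0.783 to 0.841 with LPS and 0.977 to 1.02 with IFN-β. "Higher" and "lower" are therefore relative to the bulk of genes. Without these factors, with scaling by library size only, the median log2 fold change of all tested genes moved by -0.58 for LPS, by -0.31 for IFN-β and by 0.27 for IFN-β against LPS. Values under library size only are given beside the named changes whose sign they turn. On the TMM scale 32.8% of all genes tested were higher and 35.4% lower with LPS, and 23.6% and 23.3% with IFN-β. With library size only these shares were 17.1% and 60.9% with LPS, and 13.2% and 46% with IFN-β. The counts by role below stand beside these shares.

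LPS activation raised both PA28 genes, most of the α ring, *Psmb6*, the PA200 cap and the chaperone *Psmd10*. The 19S particle was higher by less on the TMM scale (14 of 17 genes, 82.4%, beside 32.8% of all genes tested). With library size only, 13 of its 17 genes were lower, and so were 60.9% of all genes tested. Of the 44 genes, 34 (77.3%) changed, beside 68.2% of all genes tested. 30 (68.2%) were higher, beside 32.8% of all genes tested, and 4 (9.09%) were lower, beside 35.4%. The median log2 fold change of the 44 genes was 0.36 (-0.22 with library size only), against -0.04 over all genes tested. Scaled by library size only, 11 of the 44 genes were higher, beside 17.1% of all genes tested, and 27 were lower, beside 60.9%. The 11 that were higher under all 4 scalings were *Psma2*, *Psma3*, *Psma4*, *Psma5*, *Psma6*, *Psmb6*, *Psmd10*, *Psmd11*, *Psme1*, *Psme2* and *Psme4*, and the 3 that were lower under all 4 were *Psma8*, *Psmg1* and *Psmg2*. Of the 30 genes higher on the TMM scale, 16 had a value below or at 0 with library size only, and 13 of these passed the test as lower.

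IFN-β raised both PA28 genes, *Psme4*, *Psmd8*, *Psmd10* and 4 genes of the α ring, and lowered *Psmg1* and *Psmg2*. Of the 44 genes, 20 (45.5%) changed, beside 46.9% of all genes tested, so that the share was near that of all genes. 14 (31.8%) were higher, beside 23.6% of all genes, and 6 (13.6%) were lower, beside 23.3%. The median log2 fold change was 0.04 (-0.27 with library size only), against -0.02 over all genes tested. When library size alone was used, 38 of the 44 genes changed, 9 higher (beside 13.2% of all genes tested) and 29 lower (beside 46%). The 9 higher under all 4 scalings were *Psma2*, *Psma3*, *Psma4*, *Psma5*, *Psmd8*, *Psmd10*, *Psme1*, *Psme2* and *Psme4*, and the 6 lower under all 4 were *Psmd1*, *Psmd3*, *Psmd5*, *Psme3*, *Psmg1* and *Psmg2*.

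**Figure D1:**
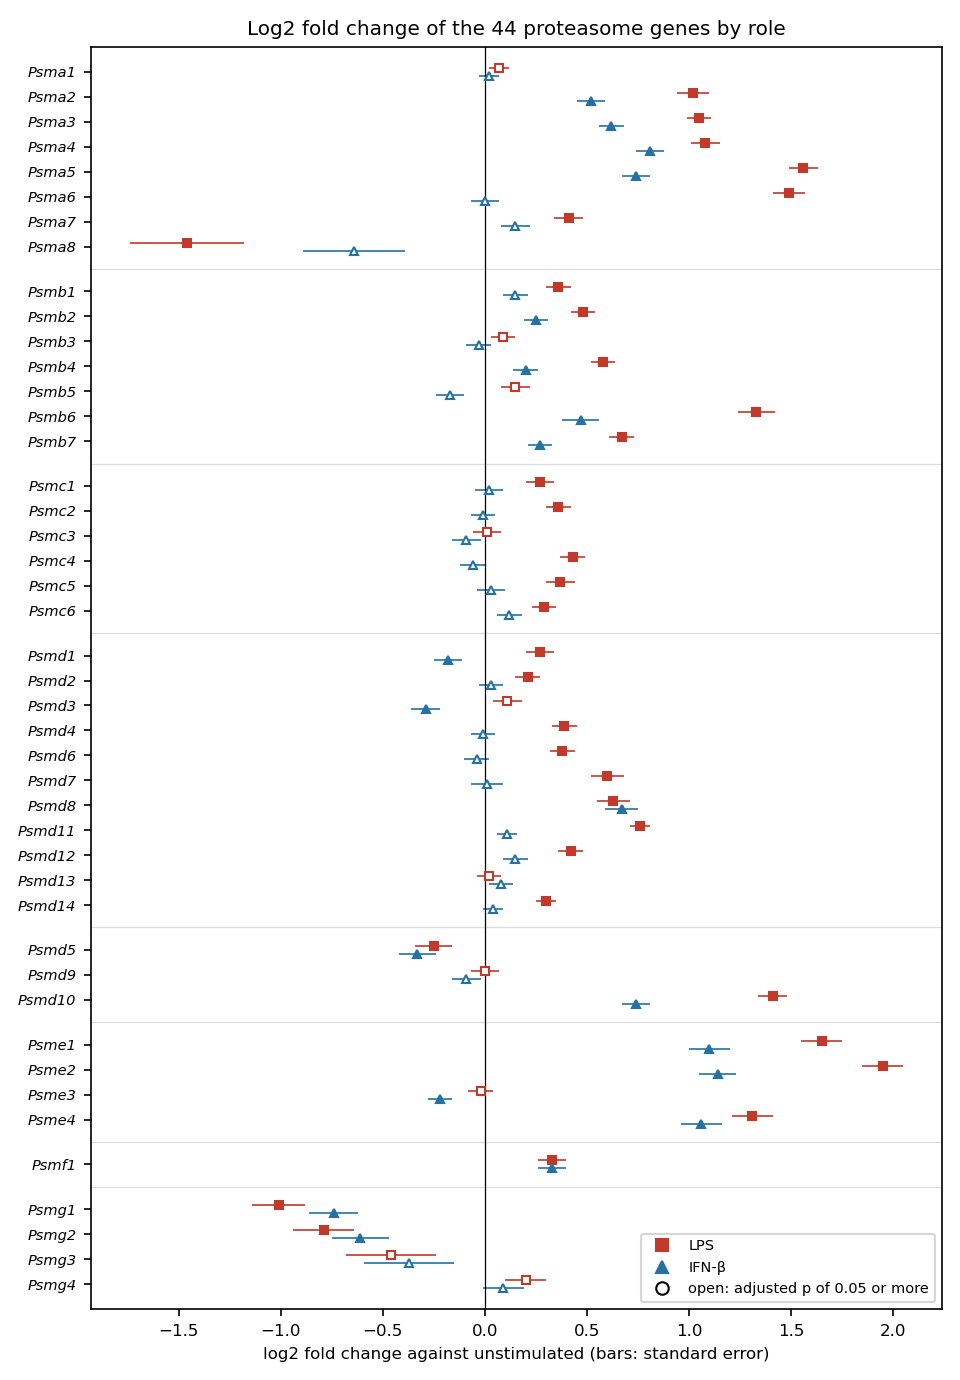
Log2 fold change of each of the 44 genes (rows, in blocks by role) against unstimulated DCs on the TMM scale, with LPS as red squares and IFN-β as blue triangles; bars are standard errors and open symbols did not pass the test. *Psme2* with LPS lies farthest to the right at 1.95 and *Psma8* farthest to the left at -1.46; with library size only, every LPS value moves left by about 0.58 and every IFN-β value by about 0.31, which takes 16 of the 30 genes higher with LPS to 0 or below.

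*Psme1* and *Psme2* had the largest rises of the 44 genes with LPS, and *Psme1*, *Psme2* and *Psme4* with IFN-β. *Psme2*, which encodes PA28β (chromosome 14, 55587441 to 55591113 on GRCm38), had 148, 137 and 120 CPM in unstimulated libraries A, B and C, 557, 523 and 479 CPM with LPS, and 296, 282 and 318 CPM with IFN-β. The 3 groups did not overlap. The log2 fold change was 1.95 ± 0.10 (SE) with LPS (adjusted p = 3.68e-08) and 1.14 ± 0.09 with IFN-β (adjusted p = 7.29e-06), or 3.85-fold and 2.21-fold.

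*Psme1*, which encodes the partner subunit PA28α and lies near *Psme2* (chromosome 14, 55578123 to 55581529), had 127, 119 and 102 CPM without stimulation, 390, 376 and 323 CPM after LPS, and 242, 245 and 256 CPM after IFN-β. All LPS libraries were above all IFN-β libraries, and these above all unstimulated ones. The log2 fold change was 1.65 ± 0.10 with LPS (adjusted p = 1.16e-07) and 1.10 ± 0.10 with IFN-β (adjusted p = 1.11e-05). Counts of *Psme2* per count of *Psme1*, a ratio within each library that no scaling enters, were 1.16 ± 0.0102 (SD, n = 3) without stimulation, 1.43 ± 0.0463 after LPS and 1.20 ± 0.0462 after IFN-β, and the last overlapped the unstimulated libraries.

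*Psme4* encodes PA200, a large cap that works without ATP. It had 123, 125 and 112 CPM without stimulation, 333, 261 and 294 CPM after LPS and 276, 229 and 244 CPM after IFN-β, so that both stimuli lay above the unstimulated libraries and overlapped each other. The log2 fold change was 1.31 ± 0.10 with LPS (adjusted p = 9.50e-07) and 1.06 ± 0.10 with IFN-β (adjusted p = 1.93e-05). Between the stimuli the difference was -0.25 ± 0.10 (adjusted p = 0.0647), which passed the test with the letters as a replicate block (adjusted p = 0.00909) and was 0.03 with library size only.

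*Psme3*, which encodes the nuclear cap PA28γ, did not follow the other caps. It had 86.6, 86.8 and 91.4 CPM without stimulation, 90.6, 86.1 and 83.9 CPM after LPS and 72.3, 76.8 and 78.2 CPM after IFN-β. The LPS libraries overlapped the unstimulated ones, with a log2 fold change of -0.02 ± 0.06 (adjusted p = 0.744), and all IFN-β libraries were below them, with -0.22 ± 0.06 (adjusted p = 0.0111). With library size only, the LPS value was -0.61 and passed the test.

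**Figure D2:**
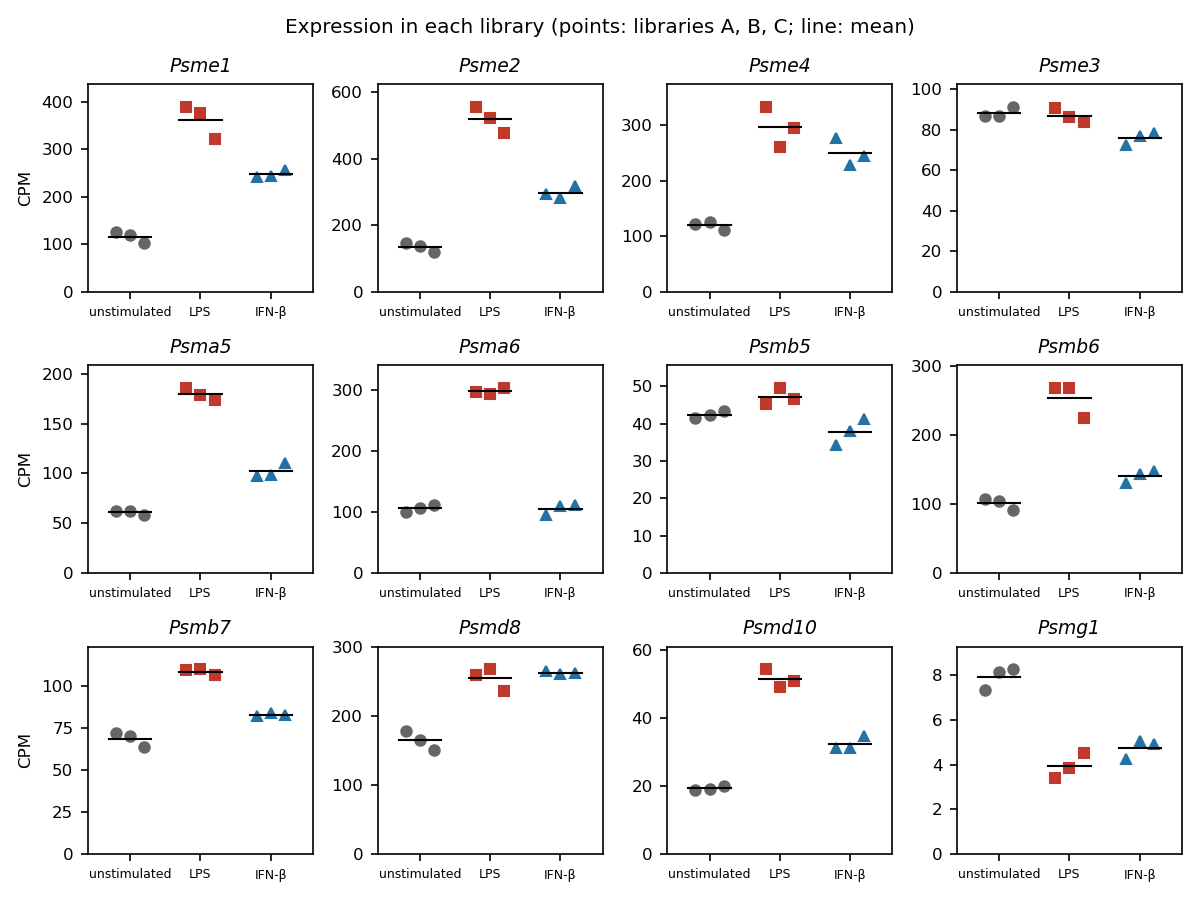
CPM on the TMM scale (vertical axes, from 0) of selected genes in each unstimulated (grey), LPS (red) and IFN-β (blue) library, with the group mean as a line. *Psme1* and *Psme2* form 3 separate levels, *Psma6* is raised in the LPS libraries alone (mean 297 CPM against 105 and 106), and *Psmg1* falls under both stimuli. With library size only, *Psmb5* (-0.43) and *Psme3* (-0.61) with LPS also lie below the unstimulated level, as do *Psmb7* (-0.03) and *Psma6* (-0.31) with IFN-β.

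In the α ring, which frames the gate of the core, LPS raised 6 of 8 genes and lowered 1, and IFN-β raised 4 and lowered 0, with median log2 fold changes of 1.04 and 0.34. On the scale of library size only, LPS raised 5 and lowered 3, and IFN-β raised 4 and lowered 4. *Psma2*, *Psma3* and *Psma4* rose with LPS by 1.02, 1.05 and 1.08 on the log2 scale and with IFN-β by 0.52, 0.62 and 0.81. *Psma7* had 0.41 with LPS (adjusted p = 0.00022; -0.17 with library size only). With IFN-β, it had 0.15 (adjusted p = 0.086; -0.16 with library size only). *Psma1* passed the test with neither stimulus, at 0.07 ± 0.05 with LPS and 0.02 ± 0.05 with IFN-β, and was lower with library size only, at -0.51 and -0.28.

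*Psma5* (chromosome 3, 108256926 to 108279974) had the largest rise of the core with LPS. It had 62.5, 62.0 and 57.9 CPM without stimulation, 186, 179 and 174 CPM after LPS and 97.6, 98.1 and 110 CPM after IFN-β. The groups did not overlap, and the log2 fold change was 1.56 ± 0.07 with LPS (adjusted p = 1.75e-08) and 0.74 ± 0.07 with IFN-β (adjusted p = 1.31e-05).

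*Psma6* (chromosome 12, 55384222 to 55418454) rose with LPS alone on the TMM scale. It had 99.5, 106 and 111 CPM without stimulation, 296, 292 and 303 CPM after LPS and 95, 110 and 111 CPM after IFN-β. The IFN-β libraries overlapped the unstimulated ones and all LPS libraries were above both. The log2 fold change was 1.49 ± 0.08 with LPS (adjusted p = 4.45e-08) and 0.00 ± 0.07 with IFN-β (adjusted p = 0.989; -0.31 with library size only). The difference between the stimuli was -1.49 ± 0.08 (adjusted p = 1.43e-07), the largest among the 44 genes, and was -1.22 with library size only. Counts of *Psma6* per count of the other α subunits were 0.211 ± 0.0167 without stimulation, 0.320 ± 0.0166 after LPS and 0.150 ± 0.0123 after IFN-β.

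*Psma8*, an α subunit known from the testis, was near the limit of what these libraries show. It had 1.17, 1.26 and 1.40 CPM without stimulation, 0.460, 0.495 and 0.430 CPM after LPS and 0.515, 0.876 and 1.08 CPM after IFN-β, where 3 counts are worth 0.0674 to 0.106 CPM in a library. LPS libraries were all below unstimulated ones, with a log2 fold change of -1.46 ± 0.28 (adjusted p = 0.000772). With IFN-β it was -0.64 ± 0.25 (adjusted p = 0.0569), which passed with the replicate block (adjusted p = 0.0243). *Psma8* was the 1 gene higher with IFN-β than with LPS, at 0.82 ± 0.29 (adjusted p = 0.0395). This call was lost in DESeq2 and in 6 of the 9 fits that left out a library (unstimulated B, any LPS library, IFN-β B or IFN-β C), with values from 0.58 to 1.07.

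In the β ring, LPS raised 5 of 7 genes and IFN-β raised 4 of 7, with none lower and medians of 0.48 and 0.20. With library size only, LPS raised 1 and lowered 3, and IFN-β raised 0 and lowered 3. *Psmb6*, the caspase-like cutting subunit (chromosome 11, 70525367 to 70527858), had 107, 104 and 91.4 CPM without stimulation, 268, 267 and 224 CPM after LPS and 130, 143 and 147 CPM after IFN-β. The groups did not overlap, and the log2 fold change was 1.33 ± 0.09 with LPS (adjusted p = 3.93e-07) and 0.47 ± 0.09 with IFN-β (adjusted p = 0.00176).

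*Psmb7*, the trypsin-like cutting subunit, had 71.6, 69.8 and 63.6 CPM without stimulation, 109, 110 and 106 CPM after LPS and 81.7, 83.6 and 82.6 CPM after IFN-β. Its groups were also apart, with 0.67 ± 0.06 for LPS (adjusted p = 2.82e-06; 0.09 with library size only) and 0.27 ± 0.06 for IFN-β (adjusted p = 0.00362; -0.03 with library size only). *Psmb5*, the chymotrypsin-like cutting subunit, had 41.5, 42.2 and 43.4 CPM without stimulation, 45.2, 49.6 and 46.6 CPM after LPS and 34.2, 37.9 and 41.1 CPM after IFN-β. The values without stimulation lay between those of the stimuli. The log2 fold change of *Psmb5* was 0.15 ± 0.07 with LPS (adjusted p = 0.0893, 0.0309 with the replicate block; -0.43 with library size only). With IFN-β it was -0.17 ± 0.07 (adjusted p = 0.0907, 0.0257 with the replicate block).

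The other β subunits carry no cutting site. *Psmb1*, *Psmb2* and *Psmb4* were higher with LPS, at 0.36, 0.48 and 0.58, and had -0.23, -0.10 and 0.00 with library size only. With IFN-β, *Psmb2* and *Psmb4* were higher, at 0.25 and 0.20 (-0.05 and -0.11 with library size only), and *Psmb4* lost its call in 4 of the 9 fits that left out a library (any unstimulated library or IFN-β C). *Psmb1* had 0.15 with IFN-β (adjusted p = 0.0585, 0.033 with the replicate block), and with library size only it was lower, at -0.15 (adjusted p = 0.0426). *Psmb3* passed with neither stimulus, at 0.09 and -0.03, and had -0.49 for LPS with library size only.

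Per kilobase of the principal transcript, *Psmb6* had the highest level of the 14 core subunits other than *Psma8* in each group, at 126 CPM per kb without stimulation, 317 after LPS and 175 after IFN-β. The lowest was *Psma3* at 26.2 CPM per kb without stimulation, *Psmb5* at 52.4 after LPS and *Psma2* at 38.8 after IFN-β. The highest level was 4.81, 6.05 and 4.51 times the lowest. This order depends on the transcript chosen, which was the longest principal one. It had 2846 bases for *Psma3* and 2911 for *Psma2*, and 766 to 1758 for the other core subunits. Not divided by length, *Psmb5* was lowest without stimulation, at 42.4 CPM, beside 74.5 for *Psma3* and 78.6 for *Psma2*. Which transcripts the cells made was not tested.

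The inducible subunits rose under both stimuli. *Psmb8*, *Psmb9* and *Psmb10* had log2 fold changes of 1.27, 2.15 and 2.06 with LPS and 1.05, 1.78 and 1.74 with IFN-β, and all 6 values passed the test under TMM and with library size only. *Psmb8* made up 64.9% ± 2.89 (SD, n = 3) of the summed length-scaled counts of *Psmb8* and *Psmb5* without stimulation, 80.0% ± 1.61 after LPS and 81.2% ± 1.43 after IFN-β. For *Psmb10* beside *Psmb7* the shares were 40.8% ± 2.61, 64.5% ± 2.42 and 65.6% ± 2.39. For *Psmb9* beside *Psmb6* they were 17.2% ± 1.34, 26.9% ± 0.685 and 34.1% ± 2.18, and this was the pair whose constitutive subunit rose most. These shares are of RNA and come from within each library, so that no scaling factor enters. In each pair the unstimulated libraries did not overlap the stimulated ones, and the smallest p an exact two-sided permutation test of 3 against 3 can give is 0.1.

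**Figure D3:**
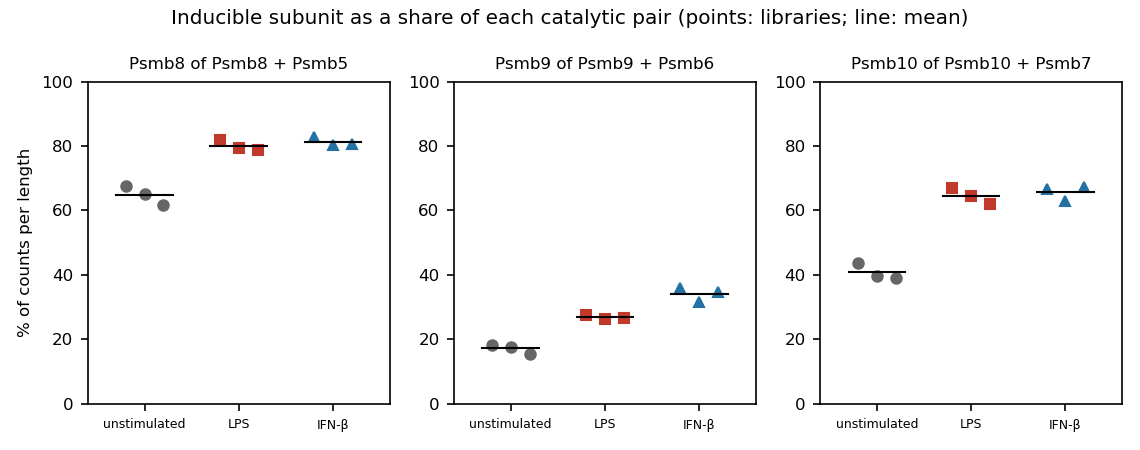
Inducible subunit as a percentage of the length-scaled counts of its pair (vertical axes, 0 to 100%) in each unstimulated, LPS and IFN-β library; lines are group means. All stimulated libraries lie above all unstimulated ones, and IFN-β lies above LPS in the pair of *Psmb9* and *Psmb6* (34.1% against 26.9%) while the groups overlap in the other pairs.

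Upstream sequence is shown for *Psmb5*, *Psmb6*, *Psme2*, *Psma5* and *Psma6*, because the results above turn on these genes. Windows of 300 bases around gene starts came from RefSeq on GRCm38.p6 and were matched by symbol for 36 of the 44 genes, in 39 windows. Bases are given 5′ to 3′ on the gene's strand, without bases that the annotation places in an exon of the gene itself, and positions are counted from the start in RefSeq. Both strands were searched for GAAANNGAA (the core of the interferon-stimulated response element), TTCNNNGAA (the gamma-activated site), TGACNNNGC (the core of the antioxidant response element, which the proteasome regulator encoded by *Nfe2l1* also binds) and CCAAT (the NF-Y box), and capitals mark the matches within the stretches shown.
Psmb5 (chr14:54618023-54618142, minus strand, -147 to -28): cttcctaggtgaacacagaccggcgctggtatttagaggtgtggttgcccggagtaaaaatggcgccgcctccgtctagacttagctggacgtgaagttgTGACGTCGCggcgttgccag
Psmb6 (chr11:70525237-70525356, plus strand, -120 to -1): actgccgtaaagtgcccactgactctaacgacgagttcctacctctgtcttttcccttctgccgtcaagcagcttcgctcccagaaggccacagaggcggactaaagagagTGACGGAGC
Psme2 (chr14:55591114-55591233, minus strand, -132 to -13): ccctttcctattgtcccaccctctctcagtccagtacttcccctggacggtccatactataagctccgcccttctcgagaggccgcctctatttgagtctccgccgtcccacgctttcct
Psma5 (chr3:108256806-108256925, plus strand, -120 to -1): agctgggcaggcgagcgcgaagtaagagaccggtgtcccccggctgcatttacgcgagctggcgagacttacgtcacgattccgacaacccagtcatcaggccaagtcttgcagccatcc
Psma6 (chr12:55384102-55384221, plus strand, -120 to -1): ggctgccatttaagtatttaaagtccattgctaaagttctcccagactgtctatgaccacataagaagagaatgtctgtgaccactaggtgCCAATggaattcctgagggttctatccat
The letters TGACNNNGC stood upstream of both *Psmb5* and *Psmb6*, and CCAAT stood upstream of *Psma6* in the window shown. *Psma6* had another window (chromosome 12, 55398575 to 55398874), which held no CCAAT, and *Psme2* also had another window. Which start the cells used was not tested. GAAANNGAA was in 7 of the 39 windows (17.9%, beside 8.56% of all 32851 windows of this length), those of *Psmb3*, *Psmb4*, *Psmc2*, *Psmd4*, *Psmd9*, *Psme1* and *Psmg4*. TTCNNNGAA was in 2 windows (5.13%, beside 8.30%), TGACNNNGC in 6 (15.4%, beside 12.4%) and CCAAT in 12 (30.8%, beside 37.4%). A match is a run of letters and says nothing of binding.

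The ATPases of the 19S particle, which open the gate and thread the substrate, moved by small amounts. LPS raised 5 of 6 (median 0.32) and IFN-β changed 0 of 6 (median 0.00), whereas with library size only 0 were higher and 5 were lower with LPS and 6 were lower with IFN-β. On the TMM scale *Psmc4* had 0.43, *Psmc5* 0.37, *Psmc2* 0.36, *Psmc6* 0.29 and *Psmc1* 0.27 with LPS (-0.15, -0.21, -0.22, -0.29 and -0.31 with library size only). *Psmc3* had 0.01 ± 0.07 with LPS (-0.58 with library size only). With IFN-β the 6 genes lay between -0.09 and 0.12. The summed level of the 6 genes was 432 ± 14.2 CPM (SD, n = 3) without stimulation, 521 ± 15.6 after LPS and 429 ± 9.38 after IFN-β.

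Of the 11 non-ATPase subunits, LPS raised 9 (median 0.38) and IFN-β raised 1 and lowered 2 (median 0.03). Under library size only, LPS raised 1 and lowered 8, and IFN-β raised 1 and lowered 10. *Psmd11*, a lid subunit that touches the core, rose most with LPS, from 86.7 ± 0.423 to 147 ± 3.82 CPM, by 0.76 ± 0.05 on the log2 scale (adjusted p = 4.21e-07). With IFN-β it had 0.11 ± 0.05 (adjusted p = 0.109; -0.19 with library size only). *Psmd8*, another lid subunit, had 165 ± 14.4 CPM without stimulation, 255 ± 16.8 CPM after LPS and 263 ± 1.70 CPM after IFN-β. It was the 1 subunit of the 19S particle higher with IFN-β, by 0.67 ± 0.08 (adjusted p = 6.85e-05), and its 2 stimulated groups overlapped, with a difference of 0.05 ± 0.08 (adjusted p = 0.657; 0.32, which passed, with library size only).

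*Psmd7*, *Psmd12*, *Psmd4*, *Psmd6*, *Psmd14*, *Psmd1* and *Psmd2* were also higher with LPS on the TMM scale, at 0.60, 0.42, 0.39, 0.38, 0.30, 0.27 and 0.21, but with library size only they had 0.02, -0.17, -0.19, -0.21, -0.28, -0.32 and -0.37. Among them are the deubiquitinase *Psmd14*, the ubiquitin receptor *Psmd4* and the scaffolds *Psmd1* and *Psmd2*. *Psmd1* was the 1 gene with calls in opposite directions on the TMM scale, from 106 ± 4.90 CPM to 128 ± 6.50 with LPS and to 93.7 ± 4.20 with IFN-β, and was lower with both under library size only. Its value with IFN-β was -0.18 ± 0.07 (adjusted p = 0.0424) and lost its call without unstimulated B, unstimulated C, IFN-β A or IFN-β B. *Psmd3*, a lid subunit, was lower with IFN-β, at -0.29 ± 0.07 (adjusted p = 0.00767). With LPS *Psmd3* had 0.11 ± 0.07 (adjusted p = 0.205; -0.47 with library size only). *Psmd12* had 0.15 with IFN-β (adjusted p = 0.055, 0.0265 with the replicate block), and with library size only it was lower, at -0.16 (adjusted p = 0.0421). *Psmd13* had 0.02 and 0.08, and -0.56 and -0.23 with library size only.

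The 3 chaperones that assemble the base of the 19S particle went different ways. *Psmd10*, which encodes gankyrin and lies on chromosome X, rose from 19.3 ± 0.684 CPM to 51.5 ± 2.79 with LPS, by 1.41 ± 0.07 (adjusted p = 4.16e-08), and to 32.4 ± 1.99 with IFN-β, by 0.74 ± 0.07 (adjusted p = 1.79e-05). *Psmd5* had 35.1, 34.5 and 36.9 CPM without stimulation, 26.7, 29.5 and 33.1 CPM after LPS and 26.0, 30.9 and 27.9 CPM after IFN-β. All stimulated libraries were below the unstimulated ones. The log2 fold change of *Psmd5* was -0.25 ± 0.09 with LPS (adjusted p = 0.0297), called in 6 of the 9 fits that left out a library and not in DESeq2, and -0.33 ± 0.09 with IFN-β (adjusted p = 0.0130). *Psmd9* had 0.00 ± 0.07 with LPS and -0.09 ± 0.07 with IFN-β, and was lower with library size only, at -0.58 and -0.40.

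The PAC chaperones, which assemble the α ring, had low levels and did not rise with it. *Psmg1* had 7.35, 8.15 and 8.30 CPM without stimulation, 3.40, 3.87 and 4.52 CPM after LPS and 4.24, 5.05 and 4.94 CPM after IFN-β. It fell by 1.01 on the log2 scale with LPS (SE 0.13, adjusted p = 3.81e-05) and by 0.74 with IFN-β (SE 0.12, adjusted p = 0.000708). *Psmg2*, its partner in a dimer, had 4.79, 5.28 and 5.01 CPM without stimulation, 3.47, 2.80 and 2.49 CPM after LPS and 3.58, 2.92 and 3.40 CPM after IFN-β. For both genes all stimulated libraries lay below all unstimulated ones. *Psmg2* fell by 0.79 (SE 0.15, adjusted p = 0.000684) and by 0.61 (SE 0.14, adjusted p = 0.00578).

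The other dimer is formed by the products of *Psmg3* and *Psmg4*. *Psmg3* had -0.46 ± 0.22 with LPS and -0.37 ± 0.22 with IFN-β, which did not pass (adjusted p = 0.091 and 0.19) but did with the replicate block (adjusted p = 0.0117 and 0.0428). *Psmg4* had 0.20 ± 0.10 and 0.09 ± 0.10 (-0.37 and -0.22 with library size only). *Psmf1*, which encodes the inhibitor PI31, was higher with both stimuli, at 0.33 ± 0.07 each, and had -0.25 with LPS and 0.03 with IFN-β with library size only.

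The direct comparison of the stimuli placed most of the genes lower with IFN-β than with LPS. Of the 44 genes, 31 (70.5%) differed, beside 49.1% of all genes tested. 30 (68.2%) were lower with IFN-β, beside 23.3% of all genes, and 1 (2.27%) was higher, beside 25.8%. The median log2 difference was -0.26 (0.01 with library size only), against 0.02 over all genes tested. Scaled by library size only, 10 were lower, beside 12.3% of all genes tested, and all of these are among the 30. Under that scaling 8 were higher, beside 43.2% of all genes. The 10 were *Psma2*, *Psma5*, *Psma6*, *Psmb6*, *Psmc4*, *Psmd7*, *Psmd10*, *Psmd11*, *Psme1* and *Psme2*. The largest differences were those of *Psma6* (-1.49 ± 0.08), *Psmb6* (-0.86 ± 0.09, adjusted p = 2.52e-05) and *Psma5* (-0.82 ± 0.07, adjusted p = 3.59e-06).

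The 2 comparisons with unstimulated DCs share these control libraries, so that their values are set side by side and not correlated. On the TMM scale 14 genes (31.8%) were higher with both stimuli, beside 19.7% of all genes tested. Of these, 11 (78.6%, beside 53.6% of all genes in this class) were lower with IFN-β than with LPS, or 6 with library size only, the exceptions on the TMM scale being *Psmd8*, *Psme4* and *Psmf1*. Another 15 genes (34.1%, beside 12.5% of all genes) were higher with LPS and not called with IFN-β. All 15 passed the direct test as lower with IFN-β than with LPS, beside 72.7% of all genes in this class, and 4 did with library size only. They were *Psma6*, *Psma7*, *Psmb1*, 5 ATPases and 7 non-ATPase subunits. 3 genes (6.82%, beside 19.8% of all genes) were lower with both, *Psmd5*, *Psmg1* and *Psmg2*, and 8 (18.2%, beside 26.2%) were called with neither. *Psmg1* had a difference between the stimuli of 0.27 ± 0.13 (adjusted p = 0.116, 0.045 with the replicate block).

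**Figure D4:**
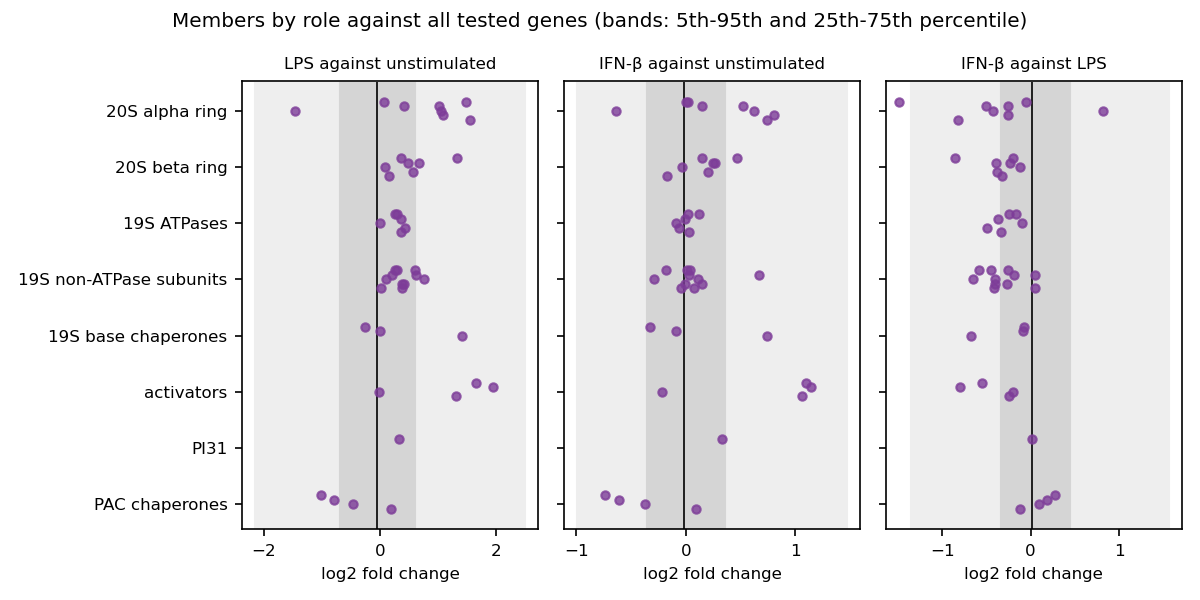
Log2 fold change of each of the 44 genes (points, rows by role) in the 3 comparisons on the TMM scale, over the range of all genes tested: light grey from the 5th to the 95th percentile, dark grey from the 25th to the 75th, and the median as a line. The 19S rows lie inside the dark band in IFN-β against unstimulated but for *Psmd8* and the base chaperone *Psmd10*, and all but 6 points lie below the line in IFN-β against LPS; with library size only, points and bands move together by -0.58, -0.31 and 0.27.

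Ratios within a library do not depend on a scaling factor. The 19S particle had 1.32 ± 0.0105 counts (SD, n = 3) per count of the 20S core without stimulation, 0.923 ± 0.0253 after LPS and 1.11 ± 0.0281 after IFN-β. The α ring had 1.22 ± 0.0300 counts per count of the β ring without stimulation, 1.56 ± 0.0609 after LPS and 1.40 ± 0.0346 after IFN-β. *Psme1* and *Psme2* together had 0.227 ± 0.0197 counts per count of the core without stimulation, 0.438 ± 0.0222 after LPS and 0.394 ± 0.00999 after IFN-β. In each of these ratios the 3 groups did not overlap.

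Per core count, *Psme3* had 0.0801 ± 0.00423 counts in unstimulated DCs, 0.0432 ± 0.000569 after LPS and 0.0546 ± 0.00105 after IFN-β, and *Psme4* had 0.109 ± 0.00421, 0.147 ± 0.0163 and 0.181 ± 0.0227. *Psme4* was thus highest beside the core with IFN-β and *Psme3* was lowest with LPS. For both genes the 3 groups did not overlap. The 20S core here is the sum of 14 subunits, without *Psma8*, and the counts are not divided by transcript length, so that the ratios show change between groups and not how many subunits there were.

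**Figure D5:**
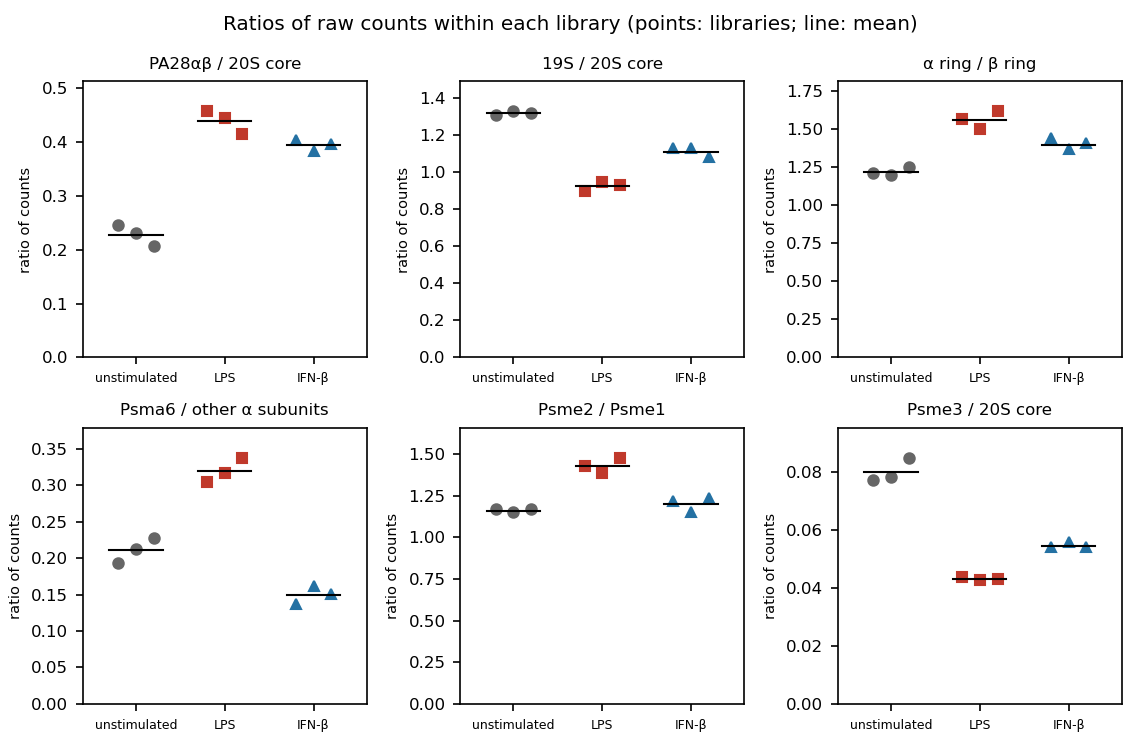
Ratios of raw counts within each unstimulated, LPS and IFN-β library (vertical axes, from 0), with the group mean as a line. *Psme1* and *Psme2* per 20S core rise from 0.227 to 0.438 with LPS and 0.394 with IFN-β, the 19S particle per core falls from 1.32 to 0.923 and 1.11, and *Psma6* per other α subunit rises with LPS to 0.320 and falls with IFN-β to 0.150.

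Of 21 partner genes listed (assembly, ubiquitin supply, shuttling and regulation of the proteasome), LPS raised 13 (61.9%, beside 32.8% of all genes tested) and lowered 4 (19%, beside 35.4%). IFN-β raised 5 (23.8%, beside 23.6%) and lowered 6 (28.6%, beside 23.3%), shares near those of all genes on the TMM scale. With upper-quartile factors, IFN-β raised 4 of the 21 (beside 20.2% of all genes) and lowered 10 (beside 28.1%). With library size only, LPS raised 1 (beside 17.1% of all genes tested) and lowered 13 (beside 60.9%). IFN-β raised 3 (beside 13.2%) and lowered 16 (beside 46%) under that scaling. *Ddi2*, whose product is a protease that activates the proteasome regulator encoded by *Nfe2l1*, fell by 1.81 with LPS (adjusted p = 1.00e-08) and by 0.41 with IFN-β (adjusted p = 0.00067), from 115 CPM to 32.8 and 86.2 CPM. *Ubqln2*, a shuttle of ubiquitinated proteins, fell by 0.84 with LPS (adjusted p = 4.59e-06) and by 0.62 with IFN-β (adjusted p = 0.000128). *Ubb* had 0.79 with LPS (0.21, not called, with library size only) and 0.48 with IFN-β (adjusted p = 0.0097). *Zfand5*, which encodes a ubiquitin-binding protein, was higher on the TMM scale with IFN-β at 0.75 and with LPS at 0.63 (adjusted p = 8.09e-05). On that scale its difference between the stimuli was not called (0.12, adjusted p = 0.289). With library size only, *Zfand5* was not called higher with LPS. Between the stimuli, 12 partner genes (57.1%, beside 23.3% of all genes) were lower with IFN-β. The 2 that were higher (9.52%, beside 25.8%) were *Ddi2* at 1.39 and *Ubqln2* at 0.21. With library size only, 4 partner genes were lower, beside 12.3% of all genes, and 6 were higher, beside 43.2%.

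The 44 genes lie on 16 chromosomes, and *Psme1* and *Psme2* are 5.91 kb apart. 15 of them have a copy elsewhere in the annotation with at least 90% identity over at least 200 bases, and for 4 these copies held over 1% of the gene's own counts: *Psme2* (8.02%), *Psmd11* (5.14%), *Psma4* (1.83%) and *Psma3* (1.42%). *Psme2b*, which is 99.4% identical to *Psme2* over 794 bases, had log2 fold changes of 2.03 with LPS and 1.79 with IFN-β. The counting method leaves out reads that map equally well to several places, so levels of all 15 genes are uncertain. Few counts on a copy do not settle this. For *Psmb5*, the copy with the most counts, *Gm3375*, was 98.9% identical over 796 bases. Exons of 9 genes overlap a gene on the other strand (*Psma4*, *Psma5*, *Psmb7*, *Psmc3*, *Psmd1*, *Psmd3*, *Psmd9*, *Psmd13* and *Psme1*) and of 3 a gene on the same strand (*Psmb5*, *Psmd1* and *Psmg3*). The strand used in counting is not given in the sources used here. How reads of the overlaps were counted, or whether they were left out, was not tested.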

How the data were processed

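RNA from 9 libraries was sequenced after depletion of ribosomal RNA from 500 ng of total RNA. The authors trimmed the reads with Trim Galore, mapped them with STAR to GRCm38 with a GENCODE annotation and deposited raw counts per gene, without normalization. Members and gene lists were chosen with earlier results of these data known. Every one of the 44 genes could be named, and per-library values were given for the 3 largest changes in each direction of a comparison and for *Psme1*, *Psme2*, *Psmb5*, *Psmb6* and *Psmb7*.

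Counts were analysed with edgeR 4.0.16 in R 4.3.3, with filterByExpr, TMM factors and a quasi-likelihood F-test on 1 model of the 3 groups. P-values were adjusted by Benjamini and Hochberg over 16260 genes, with 0.05 as the threshold, and standard errors were the log2 fold change divided by the square root of F. The script was tested on simulated data. Gene positions came from GENCODE M21 (GRCm38), in which 55144 of 55471 identifiers had an entry, and copies were found with BLAST 2.17.0. Libraries of a group differed by more than sampling noise in every pair (chi-square per degree of freedom 13 to 36.5). Deviations from the group means correlated between libraries of the same letter at 0.12 to 0.47 (9 of 9 pairs over 0.1) and at -0.40 to 0.03 between letters, so that the letters pair the libraries by the data and not by the labels. The test had no block, as in the study's methods. Alternatives were DESeq2 1.42.0, scaling without composition factors (library size only) or with upper-quartile factors, a fit without the filter, the compared groups alone, the letters as a block, and each library left out. The values of 1 partner gene are not reported here.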

Additional observations from a re-analysis of the deposited data

How the results depend on the processing

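The scaling was the choice that decided directions. With library size only, 11 of the 44 genes were higher and 27 lower with LPS, in place of 30 and 4. With IFN-β 38 changed, 9 higher and 29 lower, in place of 20, 14 and 6. Between the stimuli 18 differed, 8 higher and 10 lower with IFN-β, in place of 31, 1 and 30. Of all genes tested, 17.1% were higher and 60.9% lower with LPS under this scaling, and 13.2% and 46% with IFN-β. Between the stimuli 43.2% of all genes were higher and 12.3% lower with IFN-β. Under this scaling 51 log2 fold changes that passed the test in either fit took the other sign or 0. With LPS these were -0.51 for *Psma1*, -0.17 for *Psma7*, -0.23 for *Psmb1*, -0.10 for *Psmb2*, -0.49 for *Psmb3*, 0.00 for *Psmb4*, -0.43 for *Psmb5*, -0.31 for *Psmc1*, -0.22 for *Psmc2*, -0.58 for *Psmc3*, -0.15 for *Psmc4*, -0.21 for *Psmc5*, -0.29 for *Psmc6*, -0.32 for *Psmd1*, -0.17 for *Psmd12*, -0.56 for *Psmd13*, -0.28 for *Psmd14*, -0.37 for *Psmd2*, -0.47 for *Psmd3*, -0.19 for *Psmd4*, -0.21 for *Psmd6*, -0.25 for *Psmf1*, -0.37 for *Psmg4*. With IFN-β they were -0.28 for *Psma1*, -0.31 for *Psma6*, -0.16 for *Psma7*, -0.15 for *Psmb1*, -0.05 for *Psmb2*, -0.11 for *Psmb4*, -0.03 for *Psmb7*, -0.29 for *Psmc1*, -0.27 for *Psmc5*, -0.18 for *Psmc6*, -0.19 for *Psmd11*, -0.16 for *Psmd12*, -0.23 for *Psmd13*, -0.27 for *Psmd14*, -0.28 for *Psmd2*, -0.29 for *Psmd7*. For IFN-β against LPS they were 0.23 for *Psma1*, 0.01 for *Psma4*, 0.01 for *Psma7*, 0.07 for *Psmb1*, 0.05 for *Psmb2*, 0.02 for *Psmc1*, 0.18 for *Psmc3*, 0.11 for *Psmc6*, 0.01 for *Psmd12*, 0.02 for *Psmd14*, 0.09 for *Psmd2*, 0.08 for *Psme3*. No called value changed sign under DESeq2, upper-quartile factors, no filter, the compared groups alone, the replicate block or a library left out, and 58 changes of sign concerned values past the threshold in neither fit. Calls were lost, however: 2 with DESeq2 (3 gained) and 4 with upper-quartile factors (3 gained). Without the filter 8 were lost (1 gained), and in the compared groups alone 4 (0 gained). Those lost with upper-quartile factors were *Psmc1*, *Psmd1* and *Psmd2* with LPS and *Psmb4* with IFN-β.

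The 1 gene higher with IFN-β than with LPS became 0 with DESeq2, 0 in the fit of the compared groups alone and 2 with the replicate block, and was 0 to 1 when a library was left out. The other counts of changed, higher or lower genes among the 44 stayed within 1.5 times under the alternatives other than library size only. The block changed 9 calls among the 44 genes, all gained and given beside their values, and no other call among them. It also added 5 calls among the partner genes and 2 among the inducible subunits, which brought the partners to 14 higher and 5 lower with LPS, 5 and 7 with IFN-β, and 2 and 14 between the stimuli. Fits without 1 library lost 33 calls of single genes and gained 7. They include those of *Psmc6* (called in 2 of 9), *Psmd2* (3 of 9) and *Psme3* (7 of 9) for IFN-β against LPS. What depth limits was not tested beyond the floor given for *Psma8*. The cause of these changes was not tested, apart from the scaling factor itself.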
